A study of Mus musculus with 6 samples.

Results

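Canonical Wnt signalling ends at a small set of nuclear proteins and switches on its own brakes, and 9 genes of that final step were followed here in the growing end of the mouse incisor. Ctnnb1 encodes beta-catenin, and Tcf7, Lef1, Tcf7l1 and Tcf7l2 encode the TCF/LEF factors that carry it on DNA. Axin2, Nkd1, Nkd2 and Apcdd1 are feedback genes that dampen the pathway. These 9 genes were picked by name from a count table of 25700 genes, and all 9 were among the 19264 genes abundant enough to be tested.

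Without a Wnt ligand, a destruction complex built on Axin and APC marks beta-catenin for breakdown, and TCF/LEF factors sit on target genes with Groucho/TLE repressors. With a ligand, beta-catenin accumulates, enters the nucleus and binds the TCF/LEF factors, which then activate their targets. Axin2 is the most widely used transcriptional readout of this state. In teeth, Wnt signals pass between epithelium and mesenchyme, and loss of Lef1 stops tooth development at an early stage.

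RNA was sequenced from the proximal incisor of 5-week-old C57BL/6 mice, 3 separately numbered animals in each of 2 groups. Control mice carried the floxed Runx2 gene without Cre (Runx2fl/fl). The conditional knockout mice (cKO) were Gli1-CreERT2;Runx2fl/fl, in which tamoxifen switches on a Cre recombinase only in cells that express Gli1, a hedgehog target that marks mesenchymal stem cells of the incisor. Both groups share the floxed alleles, and the labels give a single tamoxifen protocol of 3 daily injections at 1 month of age, with collection 1 week after induction. The control mice lacked Cre, so loss of Runx2 and an effect of the Cre allele cannot be told apart.

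The libraries held 53525185 to 66694240 estimated counts. Runx2 itself measured 79.5 ± 1.72 CPM (counts scaled to a common library size; SD, n = 3) in controls and 55.2 ± 6.88 CPM in cKO mice, and every cKO mouse was below every control. Control 1 was the only male library by its Xist and Ddx3y counts, and its 6 skeletal muscle markers summed to 336 CPM, against 12.1 to 15.6 CPM elsewhere. The tissue is labelled dental mesenchyme, and all 10 markers of that mesenchyme were detected. However, 4 enamel genes of the secretory ameloblast (Amelx, Ambn, Enam and Mmp20), an epithelial cell, added up to between 22163 and 79541 CPM, so RNA of dental epithelium was also present. In such bulk samples fewer cells of a type and less RNA per cell cannot be told apart.

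The 4 TCF/LEF genes are paralogs, and the stretch of coding sequence most alike among them is shown because their reads must be told apart for the comparisons that follow. It is 90 bases long, lies in the region that encodes the DNA-binding HMG box, and spans 2 exons in each gene. Capitals mark the 65 bases that are the same in all 4 genes (72.2%), and every lower-case base differs in at least 1 gene. The sequences are from GENCODE M21 transcripts, with mm10 coordinates that include the intron between the exons: chr11:52256295-52256817 on the minus strand for Tcf7, chr3:131200325-131204267 on the plus strand for Lef1, chr6:72630020-72631089 on the minus strand for Tcf7l1 and chr19:55919541-55923907 on the plus strand for Tcf7l2.
Tcf7: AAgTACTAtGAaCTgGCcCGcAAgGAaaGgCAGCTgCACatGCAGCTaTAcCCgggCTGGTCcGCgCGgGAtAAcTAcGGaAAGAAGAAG
Lef1: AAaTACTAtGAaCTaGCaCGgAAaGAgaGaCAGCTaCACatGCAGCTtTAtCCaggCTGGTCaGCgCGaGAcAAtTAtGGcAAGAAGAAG
Tcf7l1: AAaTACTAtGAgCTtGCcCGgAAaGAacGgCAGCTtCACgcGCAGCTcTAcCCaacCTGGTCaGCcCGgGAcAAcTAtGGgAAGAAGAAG
Tcf7l2: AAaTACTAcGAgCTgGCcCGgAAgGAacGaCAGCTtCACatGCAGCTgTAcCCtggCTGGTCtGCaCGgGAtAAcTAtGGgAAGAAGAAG

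Even here the genes stayed distinct at the length of a read. Against Tcf7 the stretch was 85.6% identical in Tcf7l2, 81.1% in Lef1 and 80.0% in Tcf7l1. The longest identical run between the coding sequences of any 2 of the 4 genes was 23 bases, and reads were 75 bases long. Of the 2550 distinct 75-base windows in Tcf7 transcripts, 0 occurred in an annotated transcript of another gene, and the same held for Tcf7l2, Nkd1, Nkd2 and Apcdd1. Lef1 shared 12.7% of its windows with the antisense transcript Gm43352 and Ctnnb1 shared 11.1% with Ulk4 on the opposite strand. For Axin2 (Gm11670) and Tcf7l1 (Gm15401) the shares were 1.11% and 0.651%. Because the labels do not say whether the libraries kept strand, reads in these shared parts cannot be assigned with certainty.

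The 9 genes covered a wide range of levels. Compared per length, as CPM per kilobase of annotated exon, Ctnnb1 led the controls with 283 ± 4.80 (SD, n = 3), followed by Tcf7 with 25.2 ± 0.388, Tcf7l1 with 12.4 ± 0.782 and Axin2 with 7.11 ± 0.494. Nkd2 (5.58 ± 0.331), Apcdd1 (5.51 ± 0.370) and Nkd1 (5.43 ± 0.624) did not differ from each other beyond their spread. Tcf7l2 (3.32 ± 0.0580) and Lef1 (2.75 ± 0.196) came last. In cKO mice the order was the same down to Nkd2, and Apcdd1 then came after Nkd1, with 4.07 ± 1.14 against 5.53 ± 0.815 CPM per kilobase, within their spread. The lower end of this order depended on the length used. Over the longest coding transcript in place of all annotated exons, Lef1 reached 6.94 ± 0.495 and Tcf7l2 7.85 ± 0.137 in controls, above Nkd1 at 6.06 ± 0.697.

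The comparison asked how these genes stood 1 week after induced loss of Runx2 in Gli1-expressing cells. By edgeR, with a quasi-likelihood test and Benjamini-Hochberg adjustment over every gene tested, 0 of the 9 had an adjusted p under 0.05. Among all 19264 genes tested, 5 did (0.026%), 4 of them higher in cKO mice (0.0208% of all genes) and 1 lower (0.00519%). DESeq2 called 1 of the 9, Tcf7, against 7.18% of all genes it tested. In edgeR Tcf7 was the single gene with an unadjusted p under 0.05, against 17.3% of all genes tested (8.71% higher and 8.55% lower). By value 4 genes were above 0 and 5 below, with a median log2 fold change of -0.097, against 4.85e-05 over all genes, of which 50% were below 0. The groups did not overlap for 3 of the 9 genes, Tcf7 and Ctnnb1 on the lower side and Tcf7l1 on the higher side in cKO mice, where 23.1% of all genes were without overlap (11.1% higher and 12% lower).

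**Figure D1:**
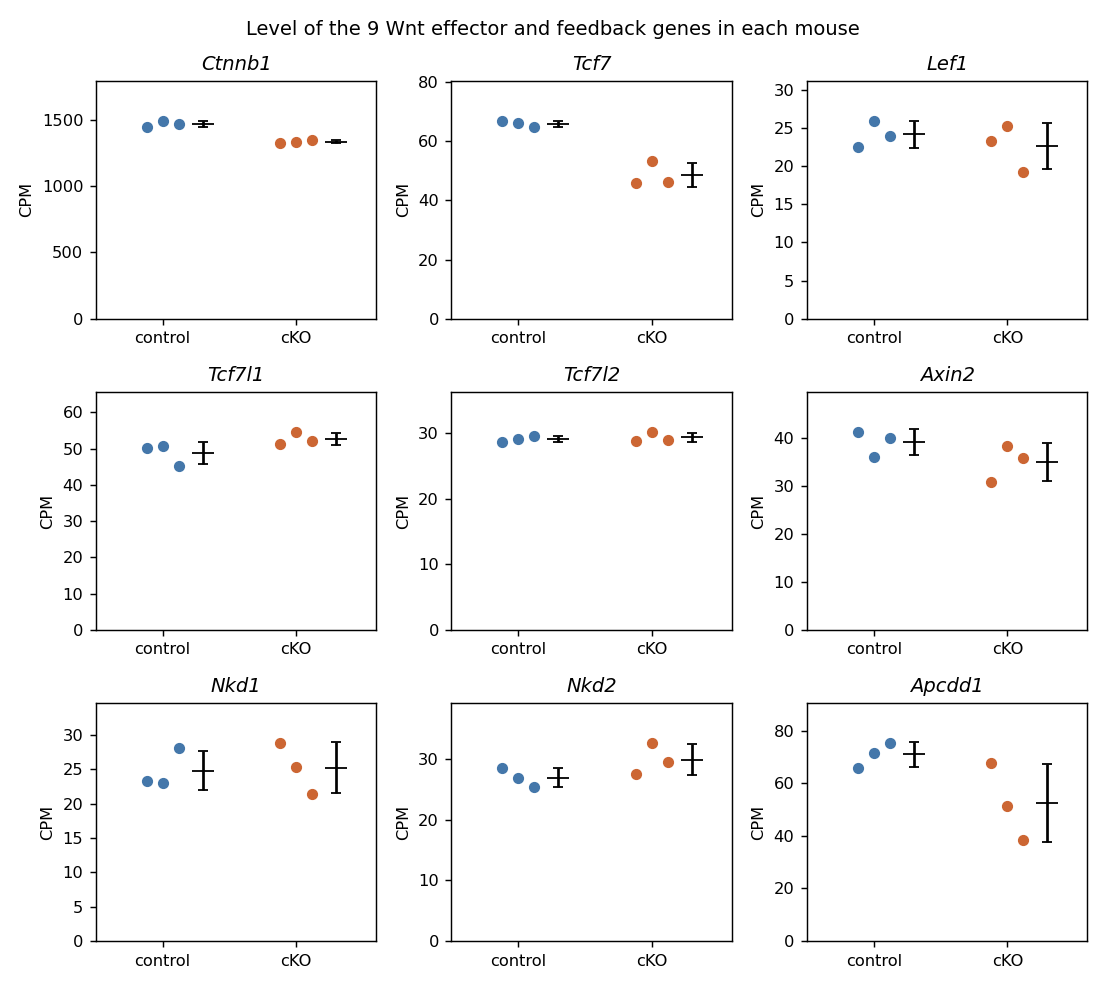
Level of each gene (vertical axis, CPM, starting at 0) in the 3 control and 3 cKO mice, with 1 point per mouse and a bar for the mean ± SD. Tcf7 lies between 65.0 and 67.0 CPM in controls and between 46.0 and 53.2 CPM in cKO mice, while the points of Lef1, Tcf7l2, Axin2, Nkd1, Nkd2 and Apcdd1 overlap between groups.

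Tcf7, the gene of the factor TCF1, stood furthest apart. It lies on chromosome 11 (52252371 to 52283014, build mm10). Controls 1 to 3 gave 67.0, 66.1 and 65.0 CPM, and cKO 1 to 3 gave 46.0, 53.2 and 46.3 CPM. All 3 cKO mice were below all 3 controls. The spread was 1.02 CPM (SD) among controls and 4.08 CPM among cKO mice. That put the cKO mean 26.6% below the control mean (95% interval 18.0% to 34.3% below), or -0.45 on the log2 scale with an SE of 0.068. Its p ranked 87 of 19264 genes, and the adjusted value missed the threshold (edgeR adjusted p = 0.0651).

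The Tcf7 difference was of like size in every alternative, but the call was not. DESeq2, another count test, gave an adjusted p of 5.62e-05, where it called 7.18% of the genes it tested (3.74% higher and 3.44% lower). Over 15 other settings, chosen with the design, the log2 fold change lay between -0.51 and -0.41 and the adjusted p between 5.62e-05 (DESeq2) and 0.539 (edgeR with a late enamel score as covariate). Without control 1 it was -0.43.

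Several cell type markers also separated the groups as Tcf7, Ctnnb1 and Tcf7l1 did, and their part in those differences was not tested. The 4 secretory ameloblast markers were all lower in cKO mice by value, with sums of 60042 to 79541 CPM in controls and 22163 to 46682 CPM in cKO mice. Sums of the 4 odontoblast markers (2862 to 4951 against 6400 to 12617 CPM), the 5 macrophage markers (265 to 363 against 408 to 539 CPM) and the 6 endothelial markers (394 to 418 against 471 to 496 CPM) were higher in every cKO mouse. So were the sums of the 10 dental mesenchyme markers (652 to 743 against 787 to 874 CPM), of which 8 were above 0 and 2 below, and of the 5 osteoblast markers (1965 to 2914 against 3188 to 4865 CPM). The osteoblast markers did not move as 1 list. The sum was carried by Bglap (log2 fold change 1.29), 3 markers were above 0 and 2 below, and the median was 0.0030. Without overlap, 2 were higher and 1, Ifitm5, was lower (-0.46), where 11.1% of all genes were higher and 12% lower. Tcf7 and Lef1 are also well-known T cell genes. The T cell markers Cd3e, Cd3d and Cd8a did not reach the count filter, and the 6 T cell markers together measured 3.07 to 4.47 CPM in controls and 3.12 to 3.96 CPM in cKO mice. Late enamel markers, high in the cKO mice (1108 to 2628 CPM), were also high in control 2 (1801 CPM) but not in control 1 or control 3 (112 and 98.1 CPM). Control 2 had 66.1 CPM of Tcf7, between the values of the other controls. That is 1 mouse, and whether late enamel content bears on Tcf7 was not tested.

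The other TCF/LEF genes did not follow Tcf7. Tcf7l1, which encodes TCF3, the member known chiefly as a repressor (chromosome 6, 72626378 to 72789254), measured 50.2, 50.7 and 45.2 CPM for controls 1 to 3 while cKO 1 to 3 gave 51.4, 54.6 and 52.0 CPM. Every cKO value was above every control value, though cKO 1 lay close to control 2. The log2 fold change was 0.11 (SE 0.063; adjusted p = 0.407 by edgeR), with a 95% interval from 2.36% below to 19.8% above control.

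Tcf7l2, which encodes TCF4, was the steadiest of the 9 (chromosome 19, 55741810 to 55933654). It measured 28.6, 29.2 and 29.6 CPM across controls 1 to 3, against 28.9, 30.3 and 29.0 CPM across cKO 1 to 3. The highest library was 1.06 times the lowest, where the median ratio was 1.21 for the 10551 genes with at least 10 CPM in controls. Its log2 fold change was 0.011 (SE 0.054; adjusted p = 0.937 by edgeR), with an interval from 7.68% below to 10.0% above control.

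Lef1, the factor needed for early tooth development (chromosome 3, 131110471 to 131224356), measured 22.5, 26.0 and 24.0 CPM for controls 1 to 3 while cKO 1 to 3 gave 23.3, 25.2 and 19.3 CPM. The groups overlapped, and cKO 3 was the lowest library. The log2 fold change was -0.097 (SE 0.11; adjusted p = 0.702 by edgeR), and without cKO 3 it was 0.0047. The interval ran from 21.8% below to 11.8% above control.

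The make-up of the TCF/LEF transcripts therefore differed between the groups by value. Tcf7 supplied 57.8%, 56.7% and 58.4% of the summed TCF/LEF CPM per kilobase across controls 1 to 3, against 47.9%, 50.0% and 48.5% across cKO 1 to 3. Tcf7l1 supplied 28.4% ± 1.09 in controls and 35.5% ± 1.05 in cKO mice, and Tcf7l2 7.62% ± 0.309 and 8.87% ± 0.314 (SD, n = 3 each). For these 3 genes the groups did not overlap, with an exact two-sided permutation p of 0.10, the smallest that 3 mice against 3 can give. The share of Lef1 was 6.30% ± 0.442 and 6.79% ± 0.657 (exact permutation p = 0.30). The family sum was 43.6 ± 1.10 and 37.8 ± 2.33 CPM per kilobase. Shares add up to the whole, so a lower share of Tcf7 raises the shares of the others.

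**Figure D2:**
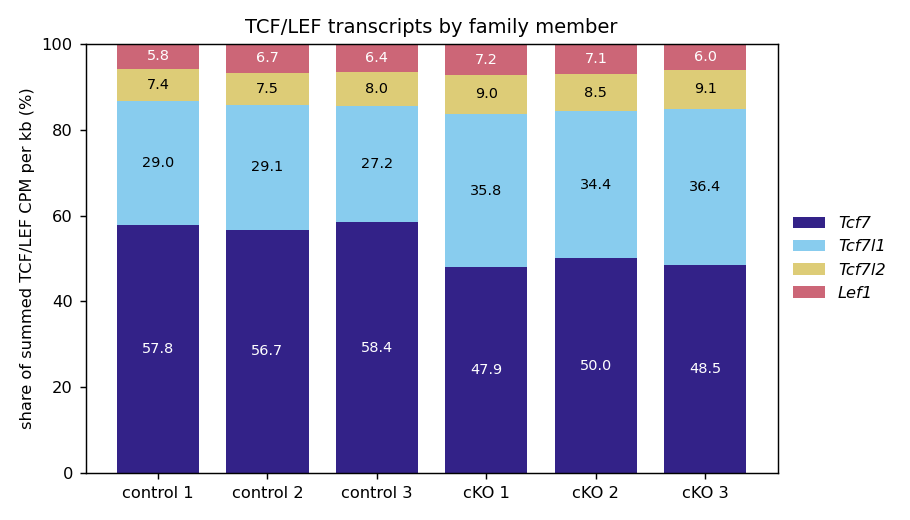
Share of each TCF/LEF gene in the summed CPM per kilobase of annotated exon (vertical axis, percent) in each of the 6 libraries, 1 stacked bar per mouse. The Tcf7 share is 56.7% to 58.4% in the controls and 47.9% to 50.0% in the cKO mice.

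Ratios of counts within a library, which need neither scaling nor gene length for a comparison between mice, showed the same ordering. They reuse the Tcf7 counts given above, and the pairs were chosen after the values had been seen. They are therefore descriptive and not a further test. There were 1.33, 1.30 and 1.44 counts of Tcf7 per count of Tcf7l1 across controls 1 to 3, against 0.895, 0.974 and 0.890 across cKO 1 to 3 (exact two-sided permutation p = 0.10, the smallest possible). Tcf7 was thus the more heavily counted gene in each control and Tcf7l1 in each cKO mouse. Per count of Tcf7l2, Tcf7 had 2.26 ± 0.0745 counts in controls and 1.65 ± 0.0955 in cKO mice, and per count of Lef1 2.74 ± 0.217 and 2.16 ± 0.216 (exact permutation p = 0.10 for each). The count ratio of Lef1 to Tcf7l2 overlapped between groups, at 0.828 ± 0.0535 and 0.768 ± 0.0906. With the longest coding transcript as gene length, the Tcf7 share was 46.5% ± 0.817 in controls and 38.2% ± 0.991 in cKO mice.

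Ctnnb1, which encodes the co-activator beta-catenin that is also a part of cell junctions (chromosome 9, 120929216 to 120960507), was by far the most abundant of the 9. It measured 1444, 1494 and 1467 CPM across controls 1 to 3, against 1323, 1335 and 1348 CPM across cKO 1 to 3. The groups did not overlap, and the spread was small in both, with SDs of 24.9 and 12.6 CPM. The log2 fold change was -0.14 (SE 0.076; adjusted p = 0.409 by edgeR), with an interval from 19.7% below to 3.00% above control. With DESeq2 its adjusted p was 0.0871.

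Among the feedback genes, Axin2 is the scaffold that rebuilds the destruction complex (chromosome 11, 108920349 to 108950783). It measured 41.3, 36.1 and 40.0 CPM for controls 1 to 3 while cKO 1 to 3 gave 30.8, 38.4 and 35.9 CPM. The groups overlapped, since cKO 2 lay above control 2, and cKO 1 was the lowest library. The log2 fold change was -0.16 (SE 0.095; adjusted p = 0.441 by edgeR), and the 95% interval ran from 23.4% below to 4.57% above control. The value was -0.071 without cKO 1, -0.031 with the late enamel score as covariate and -0.22 without cKO 2.

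Nkd1 and Nkd2 encode the naked cuticle proteins, which bind Dishevelled and restrain the signal. Nkd2 (chromosome 13, 73818534 to 73847631) measured 28.6, 26.8 and 25.4 CPM across controls 1 to 3, against 27.6, 32.6 and 29.5 CPM across cKO 1 to 3. Its groups overlapped through cKO 1 alone, and its log2 fold change was 0.15 (SE 0.082, edgeR adjusted p = 0.402, interval from 2.98% below to 26.9% above control). Axin2 and Nkd2 thus lay on opposite sides of 0. The count ratio of Axin2 to Nkd2 was 1.45, 1.34 and 1.57 for controls 1 to 3 while cKO 1 to 3 gave 1.12, 1.18 and 1.22, without overlap (exact permutation p = 0.10). This pair, like the ratio pairs above, was chosen after the values had been seen, so its separation and permutation p are descriptive and not a test. The other ratios computed with Axin2 or Nkd2 overlapped between groups: Axin2 to Ctnnb1, Nkd1 to Nkd2 and Apcdd1 to Axin2. The ratios of Tcf7 to Ctnnb1 (lower in cKO mice) and of Nkd1 to Apcdd1 (higher) were also computed and did not overlap.

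Nkd1 (chromosome 8, 88521354 to 88594884) measured 23.3, 22.9 and 28.0 CPM for controls 1 to 3 while cKO 1 to 3 gave 28.8, 25.3 and 21.4 CPM. The highest and the lowest library were both cKO mice, and the log2 fold change was 0.026 (SE 0.13; adjusted p = 0.939 by edgeR). Its interval, from 17.4% below to 25.4% above control, was wider than that of Tcf7l2 at about the same central value.

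Apcdd1, a membrane protein that binds Wnt ligands and their receptor LRP5 and blocks the signal, lies on chromosome 18. It measured 66.0, 71.7 and 75.4 CPM across controls 1 to 3, against 67.8, 51.3 and 38.4 CPM across cKO 1 to 3. It overlapped through cKO 1, which lay above control 1. The log2 fold change of -0.44 (SE 0.19) was close to that of Tcf7, but the cKO mice varied by 28.1% of their mean against 8.41% for Tcf7, and the call failed (edgeR adjusted p = 0.293, interval from 45.5% below to 0.228% above control). The value was -0.66 without cKO 1 and -0.25 without cKO 3.

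**Figure D3:**
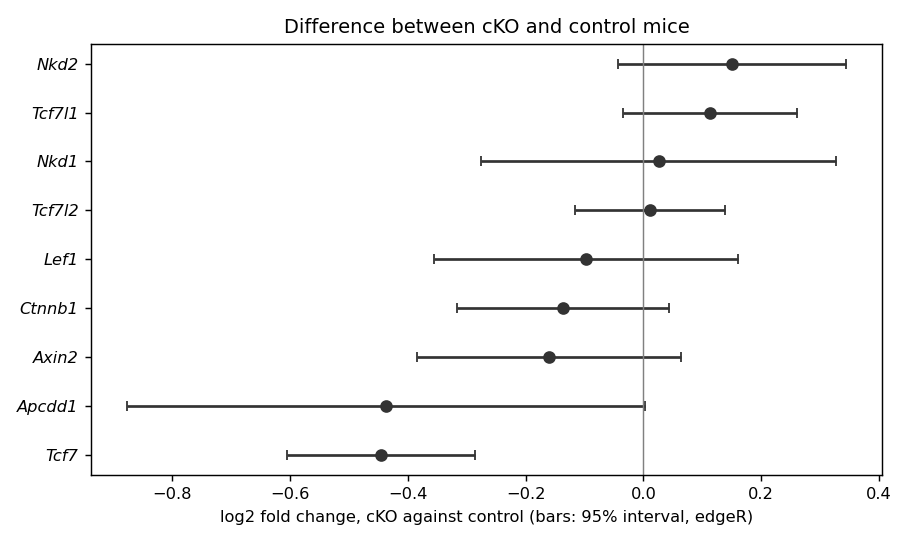
Log2 fold change of the 9 genes in cKO against control mice (horizontal axis, edgeR, 3 mice per group), with bars for the 95% interval. The interval of Tcf7 runs from -0.61 to -0.29, that of Apcdd1 from -0.88 to 0.0033, and the intervals of the other genes include 0.

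Apcdd1 followed the sum of 10 markers of dental epithelium from mouse to mouse within each group, and Nkd1 did so in part. The secretory ameloblast markers, also epithelial, gave another picture. Apcdd1 kept the order of their sum in controls 1 to 3 (60042, 60362 and 79541 CPM). It did not in cKO 1 to 3 (32977, 46682 and 22163 CPM). The sum of the 10 epithelial markers was 2843, 3239 and 3787 CPM in controls 1 to 3 and 4045, 3212 and 2508 CPM in cKO 1 to 3, so the groups overlapped. These markers did not move as 1 list: 3 were above 0 and 7 below, with a median log2 fold change of -0.16. Without overlap, 1 was higher and 1 lower in cKO mice, where 11.1% of all genes were higher and 12% lower. Within each group, the order of the 3 mice by Apcdd1 was their order by the epithelial sum, and how many other genes share it was not counted. For Nkd1 the same libraries, cKO 1 and control 3, were the highest in both measures, and cKO 3 was the lowest in both. Controls 1 and 2 broke that order, with 23.3 and 22.9 CPM of Nkd1 beside epithelial sums of 2843 and 3239 CPM. With the mean log2 level of those markers as a covariate, the SE of Apcdd1 was 0.081 in place of 0.19 and its log2 fold change -0.35 (edgeR adjusted p = 0.0895). The SE of Nkd1 was 0.065 in place of 0.13, with a log2 fold change of 0.10 (edgeR adjusted p = 0.462). Whether epithelial content accounts for the spread of either gene was not tested. The same covariate left Tcf7 at -0.45, with an adjusted p of 0.0443 in edgeR. That fit called 288 of 19264 genes, against 5 without the covariate. The unadjusted edgeR p of Tcf7 was 5.2e-04 with the covariate and 2.9e-04 without it, and its SE 0.072 and 0.068.

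**Figure D4:**
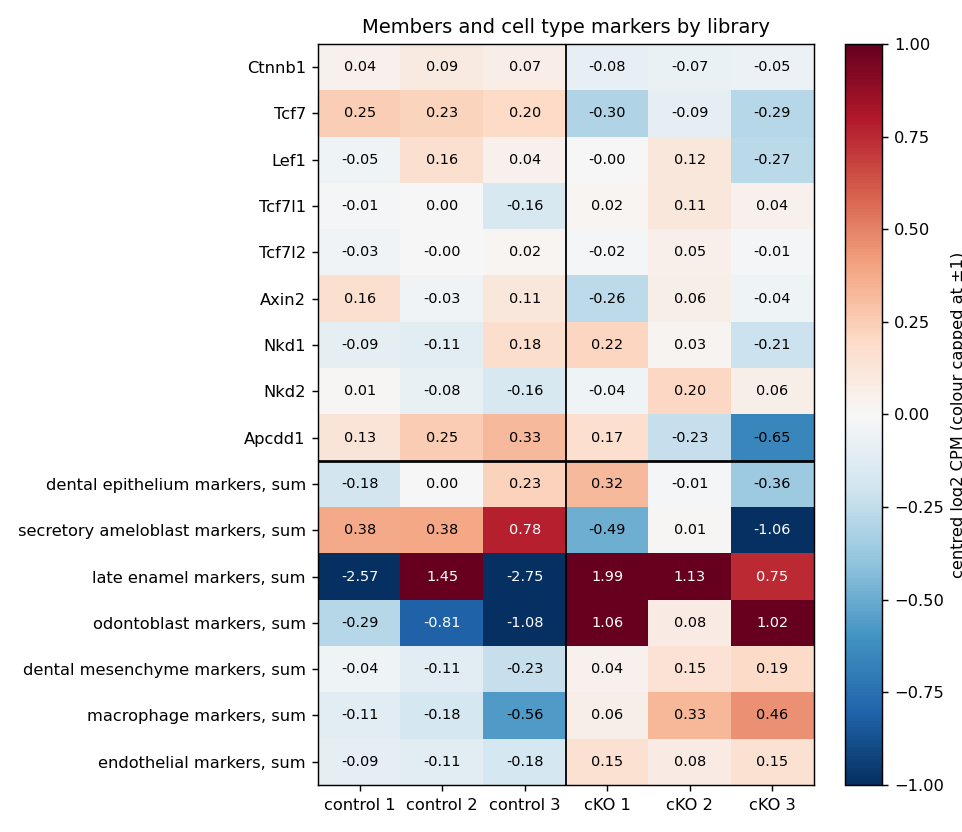
Log2 CPM of the 9 genes (upper rows) and of summed cell type markers (lower rows) in each library, as the difference from the mean of that row over the 6 libraries, with colour capped at 1 in either direction. Apcdd1 runs from 0.33 in control 3 to -0.65 in cKO 3, and Tcf7l2 stays within 0.05 of its mean in every library.

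The patterns over the 6 libraries were also compared between members. The measure was the root mean square difference of log2 CPM after centring each gene on its mean, so 0 is an identical pattern. The closest pair was Tcf7l1 and Nkd2, with 0.058, and the most distant Nkd2 and Apcdd1, with 0.43. Of 13583 genes compared, 2.63% were closer to Tcf7l1 than Nkd2 was, and 0.611% were closer to Nkd2 than Tcf7l1 was. For the next pair, Ctnnb1 and Tcf7l2 (0.078), the shares were 18.6% and 27.2%. Among 13583 genes with at least 1 CPM, leaving out those with only a predicted-gene name, those closest to Axin2 were Msi2 (0.020), Ift81 (0.026), Sept6 (0.031), Rpl9-ps6 (0.032) and Impdh2-ps (0.036), where the median gene lay at 0.18. Those closest to Lef1 were Rffl (0.032), S100a11 (0.049), Susd2 (0.052), Slc41a3 (0.055) and AU022252 (0.056), against a median of 0.18. No other member was among the 5 genes closest to Axin2 or Lef1.

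Other targets of the pathway outside the 9 also gave no call over all genes. Of 16 listed, 0 passed (edgeR), 10 were below 0 and 6 above, and the median log2 fold change was -0.15. At an unadjusted p under 0.05 there were 5 lower and 2 higher, against 17.3% of all genes, and DESeq2 called 2 lower and 1 higher, against 7.18% of all genes it tested. Myc, a growth regulator that is a Wnt target in the intestine, had the lowest p. It measured 33.5, 33.3 and 32.1 CPM for controls 1 to 3 while cKO 1 to 3 gave 40.5, 41.5 and 45.1 CPM (a log2 fold change of 0.36 with SE 0.061 and, by edgeR, adjusted p = 0.0695). Notum, an enzyme that inactivates Wnt ligands, lay between 17.3 and 24.3 CPM for controls and reached at most 14.9 CPM for cKO mice, with a cKO mean of 13.3 CPM (-0.69, SE 0.16, edgeR adjusted p = 0.105). Both were without overlap, in opposite directions.

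The machinery between the membrane and the nucleus gave 0 calls by edgeR in each list. Among 12 receptors and co-receptors, 8 were above 0 and the median was 0.054, with 4 higher and 3 lower at an unadjusted p under 0.05 and 2 higher and 1 lower by DESeq2 (over all genes 17.3% and 7.18%, with near-equal shares in each direction). The receptor Fzd4 measured 31.7 ± 0.827 and 38.3 ± 2.63 CPM (a log2 fold change of 0.28 with SE 0.066 and, by edgeR, adjusted p = 0.115), and Fzd3 137 ± 17.8 and 105 ± 5.04 CPM (-0.39, SE 0.096, edgeR adjusted p = 0.117). Of 14 Dishevelled and destruction complex genes, 12 were below 0 with a median of -0.040, 1 had an unadjusted p under 0.05 and DESeq2 called 0. That gene was Apc, the scaffold of the destruction complex, with 213 ± 5.98 and 187 ± 14.5 CPM (-0.18, SE 0.071, edgeR adjusted p = 0.250). Dvl2, a Dishevelled protein, was next in that list with a log2 fold change of -0.11 (SE 0.052; adjusted p = 0.343 by edgeR).

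Of 15 nuclear cofactors, 7 were above 0 and the median was -0.022. Bcl9l, an adaptor that joins beta-catenin to Pygopus, measured 89.9 ± 1.26 and 102 ± 2.75 CPM (0.19, SE 0.047, edgeR adjusted p = 0.120). Tle2, a Groucho co-repressor that binds TCF/LEF factors, measured 149 ± 9.98 and 191 ± 23.9 CPM (0.36, SE 0.099, edgeR adjusted p = 0.141). DESeq2 called 2 cofactors higher and 0 lower, where it called 3.74% of all genes it tested higher and 3.44% lower. An unadjusted edgeR p under 0.05 was found for 2 of the 15, against 17.3% of all genes tested.

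Upstream, 15 ligand and release genes, 12 secreted antagonists and 9 R-spondin pathway genes were tested, with medians of -0.12, 3.18e-04 and -0.12 and 0 edgeR calls in each. At an unadjusted p under 0.05 there were 3 higher and 4 lower ligand genes, 1 higher and 4 lower antagonists, and 1 higher and 2 lower R-spondin pathway genes, where 8.71% of all genes were higher and 8.55% lower. DESeq2 called 1 higher and 2 lower, 1 higher and 2 lower, and 1 higher and 1 lower in the same lists, where it called 3.74% of all genes higher and 3.44% lower. The lowest p belonged to Wnt3a (log2 fold change -1.14, edgeR adjusted p = 0.0728) and Wnt11 (-0.90, 0.0878), both ligand genes. Among antagonists it belonged to Sfrp4 (1.93, 0.0669) and again Notum, which is in both lists. Among R-spondin pathway genes it belonged to Rspo3 (2.30, 0.0645) and Rspo1 (-1.46, 0.0878). Rspo3 was scarcely counted: its control mean was 0.215 CPM and its cKO mean 1.07 CPM. Its large fold change therefore rests on few counts.

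**Figure D5:**
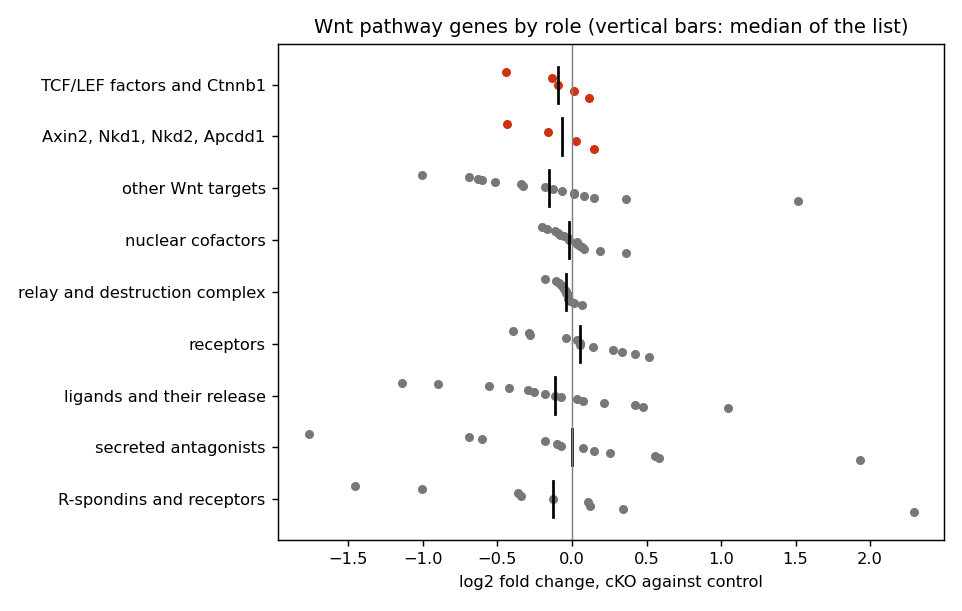
Log2 fold change in cKO against control mice (horizontal axis, edgeR) of each tested Wnt pathway gene, 1 point per gene, by role, with a vertical bar at the median of the list and the 9 members in red. The medians lie between -0.15 (other Wnt targets) and 0.054 (receptors).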

How the data were processed

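Each library is the proximal incisor of 1 mouse, numbered in accession order. Per the submitters' processing notes, STAR 2.6.1d, Partek and build mm10 were used; for annotation, counting settings and strand the sources used here give nothing. The authors deposited estimated counts per gene, of which 45.6% to 48.0% per library were whole (tolerance 1e-09). Their second deposited table, a normalized signal, equals the count plus 1 times a factor per library and was only checked.

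Counts were rounded, filtered with filterByExpr (minimum count 10, total 15) and TMM-scaled. edgeR 4.0.16 in R 4.3.3 gave a two-sided quasi-likelihood test on all 6 libraries without covariates, adjusted over all genes. SEs came from the fold change and F statistic, and 95% intervals from the same fit. DESeq2 1.42.0 and limma 3.58.1 were alternatives. At this depth 1 count is 0.0149 to 0.0186 CPM, and the 9 genes had 1205 to 99370 counts per library. All pairs of libraries differed by more than counting noise (chi-square per degree of freedom at least 43.1). Coordinates are those of the deposited table, with the end reduced by 1; exon lengths and sequences are from GENCODE M21.

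The members and gene lists were chosen with earlier results of these data known. Named are all 9 members, Runx2, Gli1 and, in each other Wnt list, the genes past the threshold or else the 2 of lowest p. Also named are the 5 genes of most like pattern to Axin2 and Lef1. The fit was tested on simulated data for this comparison (17526 genes, 200 changed). It recovered 80% of those with a log2 change of 1 and 97% of those with a log2 change of 2. Of the changed genes 177 were called, and 16 unchanged genes were called falsely. Each gene was drawn independently, without differences between mice shared by many genes. Changes as small as those of the 9 members were not simulated, so the recovery does not extend to them.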

Additional observations from a re-analysis of the deposited data

How the results depend on the processing

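Over the 15 other settings chosen with the design, Ctnnb1, Tcf7, Tcf7l1, Axin2, Nkd2 and Apcdd1 kept their direction. Tcf7 passed with DESeq2 (-0.44) and with the dental epithelium score as covariate (-0.45), and no other of the 9 genes passed in them. Nkd1 turned to -0.016 with sex as covariate and ran from -0.079 (without cKO 1) to 0.13 (without cKO 3) when 1 library was left out, also below 0 without control 1 (-0.010) and control 2 (-0.027). Tcf7l2 turned to -0.0019 with sex as covariate and to -0.0033 without cKO 2 (up to 0.027 without cKO 1), and Lef1 ran from -0.18 without cKO 2 to 0.0047 without cKO 3.

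The number of genes called was 1304 with DESeq2, 0 with sex or the late enamel score as covariate (3073 and 1476 genes at unadjusted p under 0.05), 288 with the epithelium score, and 0 (without control 1, cKO 1 or cKO 2, with 3103, 3278 and 2700 at unadjusted p under 0.05) to 72 (without control 2) with 1 library left out. Added after seeing the data, DESeq2 without control 1, 2 or 3 called 1270, 1187 and 671 genes, and without cKO 1, 2 or 3 it called 1104, 906 and 743. In the same order Tcf7 passed each time with -0.43, -0.44, -0.46, -0.41, -0.52 and -0.41. Apcdd1 passed without cKO 1 (-0.66). In those fits Nkd1 was -0.016, -0.025, 0.12, -0.082, 0.024 and 0.13, Tcf7l2 turned to -0.0020 without control 1 and -0.0084 without cKO 2, and Lef1 to 0.0066 without cKO 3. The cause of these shifts was not tested. No paired analysis was possible because the labels number each mouse separately and share no number between groups.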
